A study of Mus musculus with 15 samples.

Results

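The ADAM and ADAMTS proteases described here are 9 genes of the metalloprotease families that shed cell surface proteins and trim the extracellular matrix, namely Adam12, Adam19, Adam17, Adam10, Adamts1, Adamts2, Adamts4, Adamts5 and Adamts12. Each was taken from the probe sets that name that gene alone, using the probe set with the highest mean over all arrays, and 8 of the 9 had such a probe set, out of 17097 genes with one. Adamts2 had none and was not analysed here. RNA came from cells of adult C57BL/6 mouse kidney that were sorted for PDGFRa, a growth factor receptor of interstitial fibroblasts, and it was measured on 15 arrays in 5 groups of 3. The groups are uninjured kidney, kidney at day 3, day 7 and day 14 after folic acid, which injures the tubules acutely, and kidney on day 14 after the ureter was tied on 1 side (unilateral ureteral obstruction, UUO), a model of progressive fibrosis. No allele, transgene or treatment shared by all groups is named in the labels, the uninjured group has no stated vehicle or sham operation, and whether animals were pooled is not given in the sources used here.

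ADAM proteins are membrane-anchored. ADAM10 and ADAM17 are the main sheddases of mammalian cells: they cut growth factors, cytokines, receptors and adhesion proteins off the cell surface, and ADAM10 also makes the first cut of activated Notch receptors. ADAM12 and ADAM19 (meltrin alpha and meltrin beta) are expressed in mesenchymal and developing tissues and can release ligands of the epidermal growth factor (EGF) receptor. ADAMTS proteins are secreted and bind matrix: ADAMTS1, ADAMTS4 and ADAMTS5 cut versican and aggrecan, ADAMTS2 removes the amino-terminal propeptide of fibrillar procollagens, and ADAMTS12 cuts cartilage oligomeric matrix protein. TIMP3 is their main tissue inhibitor.

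The RefSeq promoter table (build GRCm38.p6) held 5 of the 8 measured genes, namely Adam10, Adam17, Adam19, Adamts1 and Adamts12. The windows run from 250 bases before to 50 bases after a gene's start. The 3 printed here belong to a pair of genes that changed in the same direction after injury (Adam19, at the second of its 3 listed start sites, and Adamts12) and to a gene that went the other way (Adamts1), all shown 5′ to 3′ on the gene's own strand. Capitals mark matches, on either strand, to the letters of AP-1 (TGANTCA), of the cyclic AMP response element (TGACGTCA), of TEAD (GGAATG) or of a TATA box (TATAAA).
Adam19, chr11:46055734-46056033, plus strand: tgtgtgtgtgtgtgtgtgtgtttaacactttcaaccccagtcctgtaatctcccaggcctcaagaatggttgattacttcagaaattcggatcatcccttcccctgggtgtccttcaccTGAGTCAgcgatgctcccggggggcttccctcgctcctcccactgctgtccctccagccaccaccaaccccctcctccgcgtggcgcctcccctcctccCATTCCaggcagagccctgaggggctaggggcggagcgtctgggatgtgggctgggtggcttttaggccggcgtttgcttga
Adamts12, chr15:11064523-11064822, plus strand: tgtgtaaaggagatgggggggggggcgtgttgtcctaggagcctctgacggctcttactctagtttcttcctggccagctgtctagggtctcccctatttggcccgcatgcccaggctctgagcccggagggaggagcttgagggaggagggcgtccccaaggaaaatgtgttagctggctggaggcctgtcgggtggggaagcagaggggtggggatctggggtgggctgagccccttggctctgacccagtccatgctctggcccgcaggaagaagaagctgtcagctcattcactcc
Adamts1, chr16:85803064-85803363, minus strand: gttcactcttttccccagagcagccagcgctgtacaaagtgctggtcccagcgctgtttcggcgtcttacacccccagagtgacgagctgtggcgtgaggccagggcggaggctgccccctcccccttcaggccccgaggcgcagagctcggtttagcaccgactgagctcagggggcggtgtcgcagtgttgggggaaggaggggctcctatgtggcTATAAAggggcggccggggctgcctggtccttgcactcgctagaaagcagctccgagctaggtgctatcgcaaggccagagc

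The printed Adam19 window holds 1 AP-1 match and 1 TEAD match. The windows at Adam19 start sites 1 and 3 hold 0 matches to any of the 4 motifs. The Adamts1 window holds a TATA match, and the Adamts12 window holds none of the 4 motifs. Among all 32851 promoter windows of this length, 7.81% hold the AP-1 letters, 1.79% the cyclic AMP response element, 14.7% the TEAD letters and 13.6% the TATA letters. A match is a description of letters and not a binding site. The Sp1 letters (GGGCGG, found in 35.7% of windows) occur 3 times each in the Adam10 and Adamts1 windows. They occur 1 time each in the Adam17 window and the printed Adam19 window. They occur 0 times in the Adamts12 window and at Adam19 start sites 1 and 3. GC content was 73.3% for Adam10, 70.0% for Adam17, 62.0% for Adamts12 and 64.7% for Adamts1. It was 60.3% for the printed Adam19 window, and 49.3% and 57.0% at Adam19 start sites 1 and 3. The median over all windows was 52.7%.

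All expression values are log2 intensities as deposited, so a difference of 1 is a doubling. The array medians lay between 4.93 and 5.06. The sorted cells were checked against marker lists before the proteases were compared. The mean of 10 fibroblast markers was 5.70 ± 0.30 (SD, n = 3) in uninjured arrays against 8.60 ± 0.17, 8.57 ± 0.35 and 7.95 ± 0.62 at folic acid days 3, 7 and 14 and 9.37 ± 0.07 in UUO. In uninjured arrays Col1a2, Lum and Cdh11 lay below the 40th percentile of every array, as Col1a2 also did at folic acid days 3 and 14. Pdgfra itself averaged 6.01 ± 0.38 in uninjured arrays and 5.99 ± 0.48 in UUO. At folic acid days 3, 7 and 14 it averaged 6.69 ± 0.55, 5.50 ± 1.00 and 5.28 ± 1.20, so it did not rise with the marker mean. In limma no injured group differed from uninjured kidney in Pdgfra (adjusted p from 0.465 to 0.988). The mean of 11 proximal tubule markers was 8.44 to 9.77 in uninjured arrays, 6.76 to 6.86 at folic acid day 3, 5.69 to 8.55 at day 7, 7.28 to 9.36 at day 14 and 5.43 to 6.02 in UUO, with every one of the 11 above the 40th percentile in at least 1 array of each group. Folic acid day 7 array 1 (8.55) and folic acid day 14 arrays 1 and 2 (9.36 and 9.20) were as bright in these markers as uninjured kidney. The mean of 11 distal nephron markers ran from 8.52 to 9.35 in uninjured arrays, 6.21 to 6.72 at day 3, 6.21 to 8.05 at day 7, 8.23 to 8.95 at day 14 and 5.58 to 6.07 in UUO. The mean of 14 macrophage markers was 5.22 to 5.42 in uninjured arrays, 5.78 to 6.07 at folic acid day 3, 7.79 to 8.76 at day 7, 7.50 to 8.77 at day 14 and 6.03 to 6.37 in UUO. In uninjured arrays the proximal tubule and distal nephron means (8.99 and 8.91) lay above the fibroblast mean (5.70). The purity of the sort could not be settled from the sources used here. Whether a difference from uninjured kidney is a change within fibroblasts was not tested. These marker levels moved with injury, and fits with the tubule or macrophage mean as a covariate are given beside the protease results. Fewer cells of a type and less RNA per cell cannot be told apart in such samples. Whether the samples of a group are separate animals is not stated, so a p-value measures the spread between these samples alone, and that spread may be technical.

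Against uninjured kidney, most of the measured proteases were higher in the injured groups, and the 2 that fell are both secreted ADAMTS enzymes. At an adjusted p under 0.05 in limma, 5 of the 8 rose at folic acid day 3 (Adam12, Adam19, Adam10, Adamts4 and Adamts12) and 0 fell, where 10.6% of all 13523 genes tested rose and 6.39% fell. At day 7 there were 4 that rose (Adam19, Adam10, Adamts4 and Adamts12) and 1 that fell (Adamts1), against 7.5% and 4.19% of all genes. In UUO 5 rose (Adam12, Adam19, Adam10, Adamts4 and Adamts12) and 2 fell (Adamts1 and Adamts5), against 9.07% and 7.52%. At folic acid day 14 the count was 0 by limma, with 5.67% of all genes called (4.2% higher and 1.47% lower), and 3 of the 8 (Adamts1, Adamts4 and Adamts5) had an unadjusted p under 0.05. The median log2 difference of the 8 genes was 1.49, 1.52, 0.49 and 1.66 at folic acid days 3, 7 and 14 and in UUO, where the median over all genes tested lay between -0.01 and 0.02. Counting genes whose 3 arrays all lay outside the uninjured range, 5, 6, 1 and 6 of the 8 were higher in those groups, where 22.7%, 18.4%, 15.5% and 20.3% of all genes were, and 1, 2, 1 and 2 were lower, where 19.4%, 15.3%, 12.2% and 20.9% of all genes were. Adamts4 is in each count of genes that rose, although it entered the tests only through injured arrays. These comparisons share the same 3 uninjured arrays. The moderated F test over the 5 groups called 6 of the 8, with 15.3% of all genes called, and left out Adam17 (adjusted p = 0.23) and Adamts5 (adjusted p = 0.0507).

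**Figure D1:**
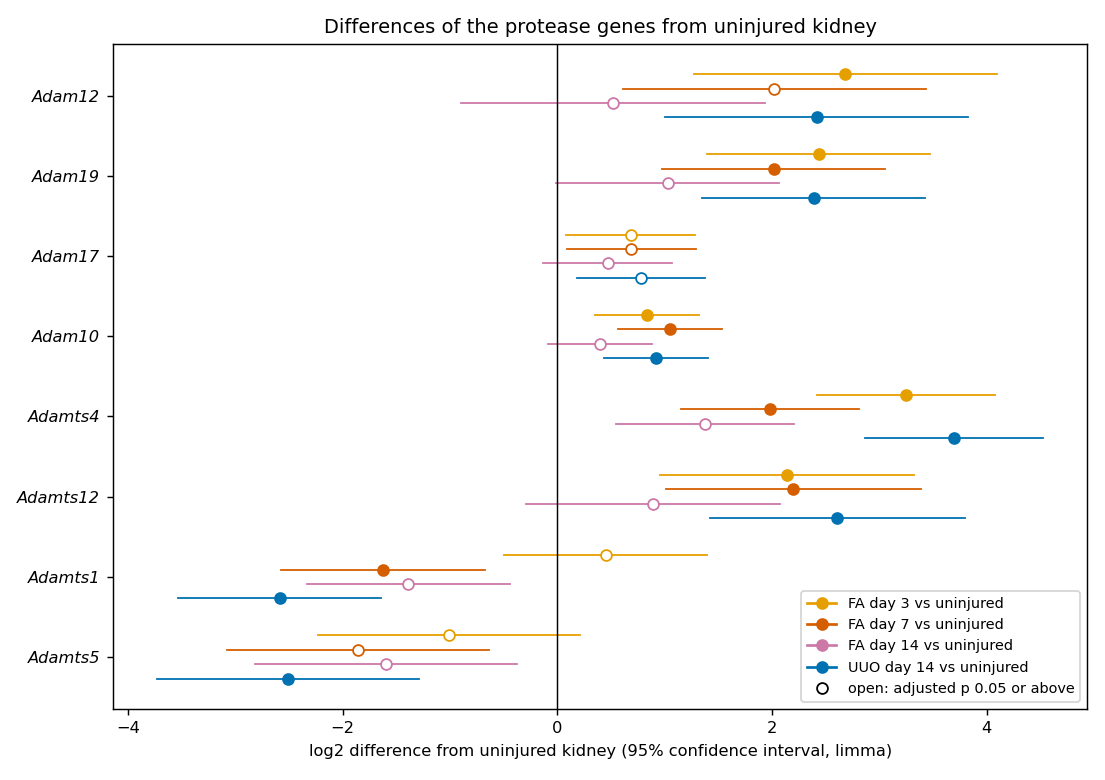
Log2 difference of each protease gene from uninjured kidney with its 95% confidence interval from limma (3 arrays per group), coloured by injury group; filled points have an adjusted p under 0.05. Adam12, Adam19, Adam10, Adamts4 and Adamts12 lie to the right of 0 in UUO, Adamts1 and Adamts5 to the left, and every folic acid day 14 point is open.

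Adam12 is the meltrin alpha gene. Its level was 8.55, 8.14 and 6.92 in uninjured arrays 1 to 3, 10.17, 11.12 and 10.37 at folic acid day 3, 9.46, 10.12 and 10.10 at day 7, 8.32, 7.18 and 9.67 at day 14, and 11.54, 9.76 and 9.56 in UUO. All arrays of day 3, day 7 and UUO lay above all uninjured arrays, whereas the day 14 arrays spread from below to above them. The increase was 2.68 on the log2 scale at day 3 (SE 0.65, 6.42-fold, adjusted p = 0.0140) and 2.42 in UUO (SE 0.65, 5.34-fold, adjusted p = 0.0234). Day 7 was 2.02 higher without passing the threshold (adjusted p = 0.0643), and day 14 was 0.52 higher (adjusted p = 0.705). The day 3 call was lost without folic acid day 3 array 2 or uninjured array 3, and the UUO call without UUO array 1 or uninjured arrays 2 or 3 (adjusted p from 0.0527 to 0.103). When the mean of the proximal tubule markers entered the fit as a covariate, the differences were 1.57 at day 3 (adjusted p = 0.279) and 0.75 in UUO (adjusted p = 0.78); the tubule values of these groups do not overlap those of uninjured arrays, so this fit extrapolates.

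Adam19, the meltrin beta gene, followed the same order of groups. It measured 5.69, 5.61 and 5.23 in the uninjured arrays, 7.46, 8.25 and 8.11 at folic acid day 3, 7.19, 7.77 and 7.62 at day 7, 6.22, 5.62 and 7.76 at day 14, and 8.62, 7.86 and 7.21 in UUO. Every day 3, day 7 and UUO array was above every uninjured array, and of the day 14 arrays only array 2 fell inside the uninjured range. Adam19 rose by 2.43 at day 3 (SE 0.48, 5.41-fold, adjusted p = 0.00444), by 2.02 at day 7 (4.04-fold, adjusted p = 0.0177) and by 2.39 in UUO (5.23-fold, adjusted p = 0.00475), and was 1.03 higher at day 14 (adjusted p = 0.25). The day 3 and UUO calls held when any single array was left out, and the day 7 call was lost without folic acid day 7 array 2 or uninjured arrays 2 or 3 (adjusted p from 0.0509 to 0.0686). With the tubule covariate the 3 differences were 1.57, 1.26 and 1.08, and none passed (adjusted p from 0.133 to 0.515).

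Adam10, the constitutive sheddase, showed smaller differences with narrow spread. Its values were 8.54, 8.16 and 8.59 in uninjured arrays, 9.11, 9.49 and 9.18 at folic acid day 3, 9.19, 9.43 and 9.82 at day 7, 8.41, 8.99 and 9.08 at day 14, and 9.62, 9.26 and 9.18 in UUO. The lowest array of day 3, of day 7 and of UUO exceeded the highest uninjured array. Adam10 rose by 0.83 at day 3 (SE 0.22, 1.78-fold, adjusted p = 0.0233), by 1.05 at day 7 (2.08-fold, adjusted p = 0.00999) and by 0.92 in UUO (1.89-fold, adjusted p = 0.0138), and was 0.40 higher at day 14 (adjusted p = 0.345). The day 3 call was lost without folic acid day 3 array 2 or uninjured array 2, and the UUO call without UUO array 1 or uninjured array 2 (adjusted p from 0.0549 to 0.0987). None of the 3 passed with the tubule covariate (differences of 0.50, 0.76 and 0.42, adjusted p from 0.128 to 0.627), with quantile normalization (0.47, 0.78 and 0.68, adjusted p from 0.0535 to 0.2) or with the mean of its 3 probe sets (0.38, 0.41 and 0.45, adjusted p from 0.136 to 0.204).

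Adam17, the enzyme that releases tumour necrosis factor and most EGF receptor ligands, passed no comparison in limma. Its level was 7.49, 6.87 and 7.15 in uninjured arrays, 8.22, 7.34 and 8.00 at folic acid day 3, 7.87, 7.89 and 7.82 at day 7, 7.07, 7.70 and 8.14 at day 14, and 8.03, 7.75 and 8.07 in UUO. The day 7 and UUO arrays lay above the uninjured range, and the other injured groups overlapped it. The differences were 0.68, 0.69, 0.47 and 0.78 in that order of groups (SE 0.28, adjusted p = 0.111, 0.128, 0.372 and 0.073). In UUO the 95% interval ran from 0.18 to 1.38, so neither a small increase nor a doubling lies outside it. UUO passed without folic acid day 14 array 1 and day 3 without folic acid day 3 array 2 (adjusted p = 0.038 and 0.0429).

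**Figure D2:**
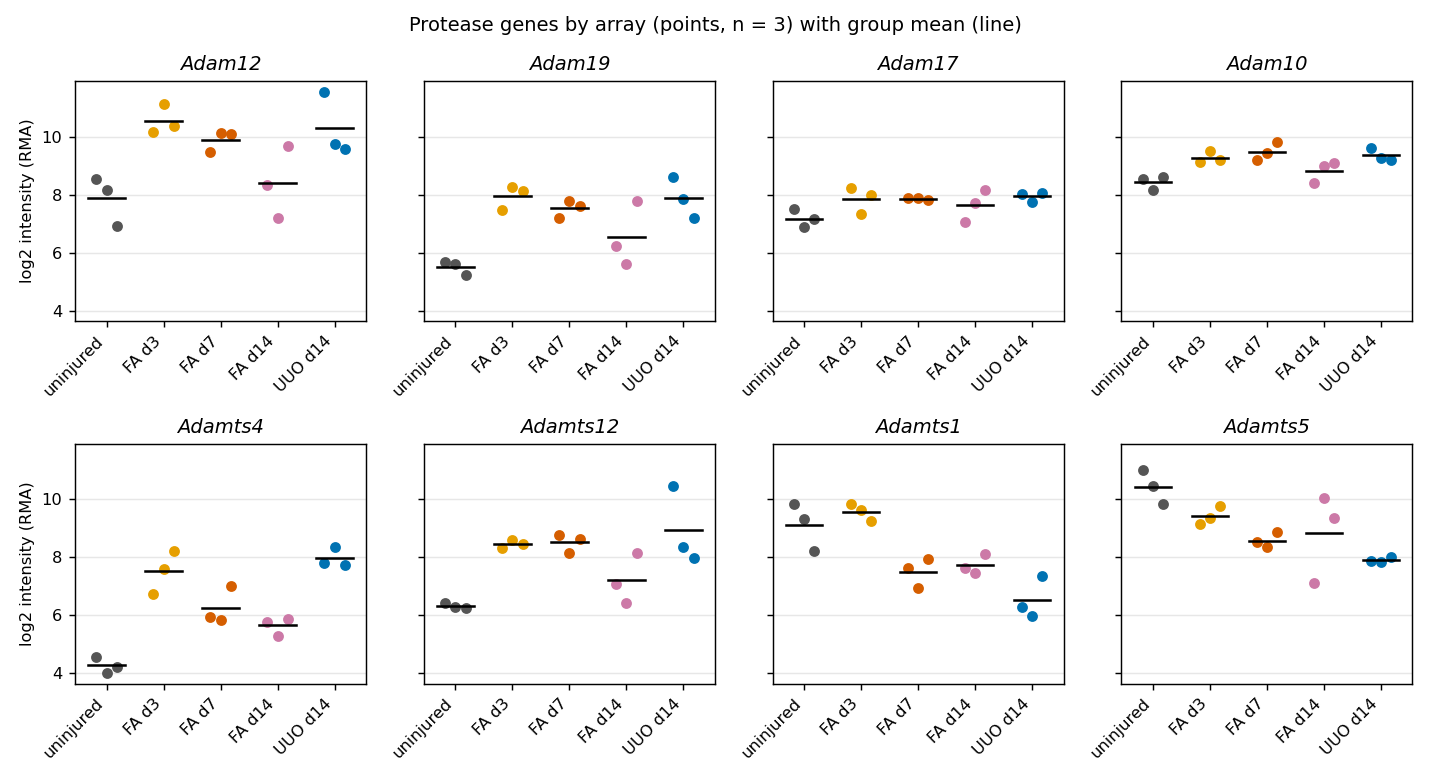
Log2 intensity of each protease gene on every array (points) with the group mean (line); FA is folic acid, d is day, and each group has 3 arrays. Adamts4 is lowest in the 3 uninjured arrays (4.02 to 4.57), Adamts5 is lowest in folic acid day 14 array 1 and in the UUO arrays, and the folic acid day 14 points of Adam12, Adam19 and Adamts12 are spread widely.

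Among the secreted enzymes, Adamts4 (aggrecanase 1) was higher in every injured group, most so at folic acid day 3 and in UUO. Its values were 4.57, 4.02 and 4.23 in uninjured arrays, 6.74, 7.60 and 8.23 at folic acid day 3, 5.95, 5.82 and 7.00 at day 7, 5.78, 5.29 and 5.88 at day 14, and 7.82, 8.37 and 7.73 in UUO. No uninjured array was above the 40th percentile of its array, so the gene entered the tests only through the groups where it is brighter and its calls against uninjured kidney are partly set by that filter, and every injured array exceeded every uninjured array. Adamts4 rose by 3.25 at day 3 (SE 0.38, adjusted p = 0.000141), by 1.98 at day 7 (adjusted p = 0.00582) and by 3.70 in UUO (adjusted p = 5.9e-05). At day 14 it was 1.38 higher (adjusted p = 0.0559). No fold is given, since the uninjured values lie too low to serve as a measured base. The day 3, day 7 and UUO calls held without any single array. With the tubule covariate Adamts4 was 2.63 higher at day 3 and 2.77 in UUO (adjusted p = 0.00782 and 0.0399). Both were called, in a fit that extrapolates for these groups. At day 7 Adamts4 was 1.45 higher in that fit (adjusted p = 0.0879).

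Adamts12 was higher in the same injured groups. It measured 6.44, 6.28 and 6.24 in uninjured arrays, 8.33, 8.60 and 8.44 at folic acid day 3, 8.77, 8.15 and 8.63 at day 7, 7.07, 6.41 and 8.15 at day 14, and 10.46, 8.34 and 7.98 in UUO. The uninjured arrays lay close together, UUO array 1 stood far above the other UUO arrays, and folic acid day 14 array 2 lay inside the uninjured range. Adamts12 rose by 2.14 at day 3 (SE 0.55, 4.41-fold, adjusted p = 0.0183), by 2.20 at day 7 (4.59-fold, adjusted p = 0.0223) and by 2.61 in UUO (6.10-fold, adjusted p = 0.00624), and was 0.89 higher at day 14 (adjusted p = 0.395). The UUO call held without any single array, UUO array 1 included. The day 3 call was lost without folic acid day 3 array 2 or uninjured arrays 2 or 3, and the day 7 call without folic acid day 7 arrays 1 or 3 or any uninjured array (adjusted p from 0.0524 to 0.0701). With the tubule covariate the differences were 1.86, 1.96 and 2.19, and none passed (adjusted p from 0.147 to 0.301). With the mean of both its probe sets, the second of them dim, day 3 and day 7 did not pass either (1.14 and 1.16, adjusted p = 0.0922 and 0.106).

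Adamts1, a versican-cutting enzyme that also inhibits angiogenesis, was near its uninjured level at folic acid day 3 and lower in the later groups. Its level was 9.85, 9.32 and 8.20 in uninjured arrays, 9.84, 9.64 and 9.24 at folic acid day 3, 7.63, 6.94 and 7.93 at day 7, 7.61, 7.47 and 8.12 at day 14, and 6.29, 5.97 and 7.34 in UUO. Day 3 overlapped uninjured kidney, and the arrays of day 7, day 14 and UUO all lay below the lowest uninjured array. At day 3 it was 0.45 higher (SE 0.44, adjusted p = 0.521). Adamts1 fell by 1.62 at day 7 (3.08-fold lower, adjusted p = 0.0312) and fell by 2.59 in UUO (6.01-fold lower, adjusted p = 0.00169). Its log2 difference at day 14 was -1.39 (adjusted p = 0.088). The UUO call held without any single array and with the tubule covariate (-3.51, adjusted p = 0.0301), a fit that extrapolates for UUO. The day 7 call was lost without folic acid day 7 arrays 1 or 2 or uninjured arrays 1 or 2 (adjusted p from 0.0506 to 0.121) and held with the tubule covariate (-2.16, adjusted p = 0.0384). It was also lost without the 3 injured arrays bright in tubule markers (-1.69, adjusted p = 0.0655).

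Adamts5 (aggrecanase 2) had its highest mean in uninjured kidney. Its uninjured arrays gave 11.00, 10.45 and 9.84, against 9.15, 9.34 and 9.78 at folic acid day 3, 8.51, 8.34 and 8.86 at day 7, 7.11, 10.03 and 9.36 at day 14, and 7.89, 7.85 and 8.03 in UUO. Only folic acid day 14 array 2 reached into the uninjured range, and the UUO arrays lay close together. Adamts5 fell by 2.51 in UUO (SE 0.56, 5.69-fold lower, adjusted p = 0.009). Its log2 differences were -1.01 at day 3 (adjusted p = 0.246), -1.86 at day 7 (adjusted p = 0.0507) and -1.59 at day 14 (adjusted p = 0.125). With the mean of its probe sets these were -1.11, -1.44 and -1.29, and all passed (adjusted p = 0.033, 0.0127 and 0.0422). The UUO call held without any single array and was lost with the tubule covariate, where the difference was -3.58 (adjusted p = 0.0786). Day 3 and day 7 passed when folic acid day 14 array 1 (7.11) was left out (adjusted p = 0.0327 and 0.00178). In the RefSeq table Adamts1 and Adamts5 are direct neighbours, with 0 protein-coding genes between them.

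Between the injury models at day 14, UUO against folic acid, 1 of the 8 genes was called, Adamts4, where 1.28% of all genes were higher and 1.75% lower in UUO. Adamts4 was 2.32 higher in UUO (SE 0.38, 5.00-fold, adjusted p = 0.00881), and the lowest UUO array (7.73) lay above the highest folic acid day 14 array (5.88). The call held without any single array. With the tubule covariate, whose values in these groups do not overlap, it was lost (1.50, adjusted p = 0.471). It was also lost when the 3 injured arrays with bright tubule markers were left out (2.09, adjusted p = 0.193), a fit in which folic acid day 14 has a single array, assumed to vary like the other groups. Adam12, Adam19 and Adamts12 were 1.90, 1.36 and 1.72 higher in UUO without passing (adjusted p = 0.145, 0.155 and 0.117), and each passed without folic acid day 14 array 3, the day 14 array with the dimmest tubule markers (adjusted p = 0.0413, 0.0155 and 0.0453). Adamts1 and Adamts5 differed by -1.20 and -0.91 (adjusted p = 0.169 and 0.468), the latter passing without folic acid day 14 array 1 (adjusted p = 0.0245). In this comparison 0 of the 11 proximal tubule markers were higher in UUO and 4 lower, 9 of 11 distal nephron markers and 6 of 13 macrophage markers were lower, and 6 of 10 fibroblast markers were higher. Their part in these differences was not tested beyond the covariate fits.

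Within the folic acid course, 2 genes were called between day 3 and day 14. Adamts1 fell by 1.84 (SE 0.44, 3.58-fold lower, adjusted p = 0.0424) and Adamts4 fell by 1.87 (SE 0.38, 3.66-fold lower, adjusted p = 0.0223), where 1.83% of all genes fell and 1.22% rose. Adam12 and Adam19 had log2 differences of -2.16 and -1.41 between the same days (adjusted p = 0.102 and 0.148). From day 3 to day 7 the limma count was 0, with 0.695% of all genes called and 2 of the 8 at an unadjusted p under 0.05: Adamts1 differed by -2.08 (adjusted p = 0.0537) and Adamts4 by -1.26 (adjusted p = 0.193). From day 7 to day 14 it was also 0, with 0.0518% of all genes called and 3 of the 8 at an unadjusted p under 0.05. Adamts1 was the 1 gene called between UUO and folic acid day 3, 8.22-fold lower in UUO (log2 difference -3.04, SE 0.44, adjusted p = 0.00489), where 0.606% of all genes were lower and 0.525% higher. UUO against folic acid day 7 gave 0, with 0.274% of all genes called and 2 of the 8 at an unadjusted p under 0.05.

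Ordered by group means, Adam12 and Adam19 ran folic acid day 3, UUO, day 7, day 14, uninjured. Adam10 and Adamts12 shared the last 2 places of that order, with day 7 and UUO ahead of day 3, and Adam17 ran UUO, day 7, day 3, day 14, uninjured. Adamts4 ran UUO (7.97), day 3 (7.52), day 7 (6.26), day 14 (5.65) and uninjured (4.28). Adamts5 ran uninjured (10.43), day 3 (9.42), day 14 (8.84), day 7 (8.57) and UUO (7.92), and Adamts1 put day 3 (9.58) before uninjured (9.12), day 14 (7.74), day 7 (7.50) and UUO (6.54). In none of the 8 genes did neighbours in the order differ at an adjusted p under 0.05, the closest being day 14 and uninjured kidney for Adamts4 (adjusted p = 0.0559).

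Other probe sets of the same genes bore on these calls when each was tested on its own. The second Adam12 probe set was higher in all 4 injured groups, by 3.78, 2.48, 1.94 and 3.41 at folic acid days 3, 7 and 14 and in UUO (adjusted p = 9.41e-05, 0.0022, 0.016 and 0.000187), so it passed at day 7 and day 14 where the first did not. With the mean of both, day 7 passed as well (2.25, adjusted p = 0.0109). The second Adam19 probe set, with a mean of 5.74, passed in none of the injured groups. It was 0.44, 1.14, 0.25 and 1.21 higher at folic acid days 3, 7 and 14 and in UUO (adjusted p = 0.495, 0.0863, 0.78 and 0.0598). The second Adamts4 probe set rose by 2.97 at day 3, by 1.65 at day 7 and by 1.83 in UUO (adjusted p = 0.000746, 0.0295 and 0.013), but its difference of 1.07 between UUO and folic acid day 14 did not pass (adjusted p = 0.252). The Adamts5 probe sets ranked 2 and 3 by brightness fell in UUO (log2 differences of -3.21 and -1.99, adjusted p = 0.000408 and 0.00359) and at day 7 (-1.66 and -1.50, adjusted p = 0.0288 and 0.0231), while the remaining probe set was too dim to test. The set ranked 2 also passed at day 3 (-1.61, adjusted p = 0.0239) and the set ranked 3 at day 14 (-1.41, adjusted p = 0.0468). Between UUO and folic acid day 14, the second probe sets of Adam10 and Adamts5 passed (1.03 and -1.93, adjusted p = 0.0423 and 0.0396) where their brightest did not. Neither further probe set of Adam10 passed against uninjured kidney, nor did any of Adam17, whose dimmest probe set differed by -0.30 in UUO. At day 3, day 7 and in UUO the second Adam10 probe set differed by 0.29, 0.48 and 0.59. The third Adam10 probe set differed by 0.0046, -0.31 and -0.17 in the same groups. The second Adamts12 probe set was too dim to test, and Adamts1 has a single probe set.

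**Figure D3:**
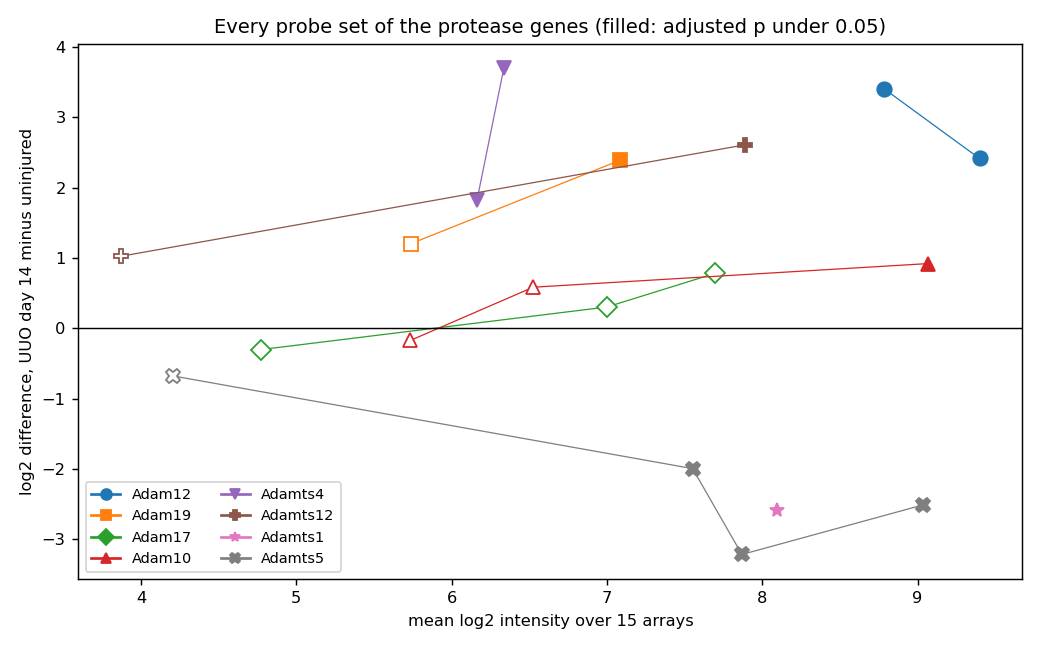
Log2 difference between UUO day 14 and uninjured kidney of every probe set that names a protease gene alone, against its mean log2 intensity over 15 arrays; lines join probe sets of 1 gene, and filled symbols have an adjusted p under 0.05. Both Adam12 and both Adamts4 probe sets and the 3 brighter Adamts5 probe sets are filled, whereas the dimmer Adam19, Adam10 and Adamts12 probe sets are open.

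The calls were also fitted with the mean of the macrophage markers as a covariate, since those markers were bright at folic acid days 7 and 14. At day 3 Adam19 and Adamts4 stayed called (1.89 and 2.95, adjusted p = 0.0294 and 0.00136). In UUO Adamts4 and Adamts1 did (3.31 and -2.75, adjusted p = 0.00176 and 0.0147). The Adamts4 calls here remain partly set by the filter, as described above. At day 7 the limma count was 0. The macrophage values of every injured array lay above those of the uninjured arrays, so this fit extrapolates too. Adamts4 in UUO against folic acid day 14 was 3.35 higher in this fit (adjusted p = 0.0639). Without the 3 injured arrays bright in tubule markers, the day 3 and UUO calls were kept. Adamts5 was added at day 3 and Adam17 in UUO. At day 7 Adamts1 was lost, and Adam12 and Adamts5 were added (2.24 and -1.83). Adam19 was 2.25 higher at day 14, where a single array remained.

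Across the 15 arrays the proteases split into sets that vary together, given here as a description, since the arrays share the group structure and the tubule content above. Adam12, Adam19 and Adamts12 were most alike, with Pearson's r of 0.955 for Adam12 and Adam19, 0.929 for Adam19 and Adamts12 and 0.913 for Adam12 and Adamts12. Adamts4 had r of 0.853 with Adam19. Adamts1 and Adamts5 had r of 0.713 with each other and values between -0.553 and -0.085 with the other 6. Against the mean of the proximal tubule markers, r lay between -0.848 (Adamts4) and -0.639 (Adam17) for the 6 genes with higher means in UUO, and was 0.282 for Adamts1 and 0.395 for Adamts5. Against the mean of the fibroblast markers, r lay between 0.726 (Adam17) and 0.883 (Adam19 and Adamts4) for those 6 genes, and was -0.475 for Adamts1 and -0.717 for Adamts5. Against 7 pericyte and smooth muscle markers, r was 0.8 for Adamts1 and 0.666 for Adamts5, and between -0.181 and 0.038 for the other 6. The mean of those markers was 6.99 ± 0.24 in uninjured arrays, 7.25 ± 0.11, 6.63 ± 0.16 and 7.00 ± 0.23 at folic acid days 3, 7 and 14, and 6.50 ± 0.20 in UUO, and the part of either marker list in these differences was not tested.

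**Figure D4:**
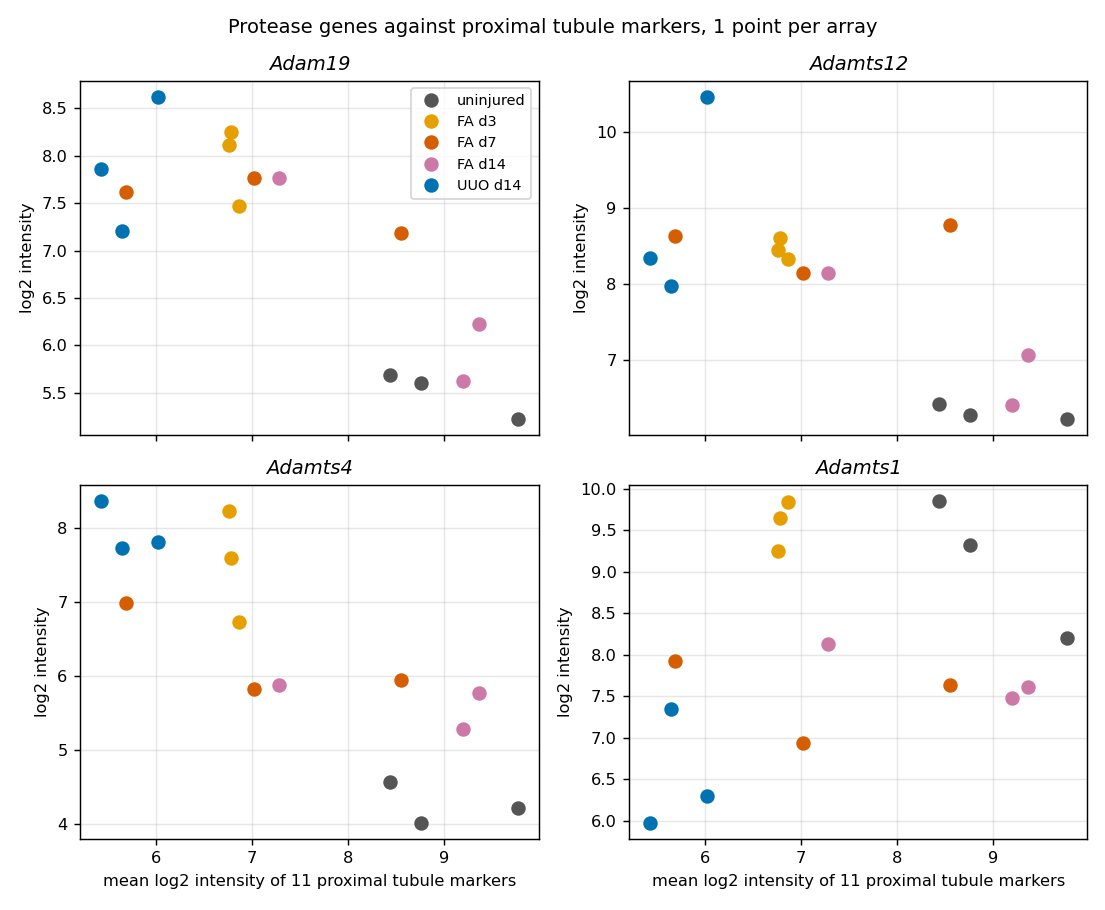
Log2 intensity of Adam19, Adamts12, Adamts4 and Adamts1 against the mean of 11 proximal tubule markers, 1 point per array, coloured by group. Folic acid day 14 arrays 1 and 2 (9.36 and 9.20) share the tubule range of the uninjured arrays. Both lie low on the vertical axis for Adam19 (6.22 and 5.62). Adamts1 has its lowest group mean in UUO, the group with the lowest mean of tubule markers, and is high at folic acid day 3.

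The genes whose values were most like each protease over the 15 arrays were named by the highest r among all tested genes outside the set. For Adam12 they were Akap12 (0.954), a kinase scaffold, Rtn4 (0.922) and Fstl1 (0.919), a secreted glycoprotein of mesenchymal cells. For Adam19 they were Akap12 (0.964), Adgra1 (0.959) and Lox (0.956), the enzyme that crosslinks collagen. Adamts12 was most like Akap12 (0.92), Actn1 (0.918) and Pxdn (0.908), and Adamts4 like Palld (0.949), an actin-bundling protein, Wnt5a (0.926) and Tbc1d9b (0.925). Adamts1 was closest to Agtr1a (0.916), the type 1 angiotensin receptor, Emid1 (0.915) and Ehd3 (0.862). Adamts5 was closest to Slc12a2 (0.943), Epas1 (0.94), a hypoxia-inducible factor, and Hspa12a (0.922). Adam10 was nearest to Ppp3cb (0.909), Nr2f2 (0.908) and Rrbp1 (0.908), and Adam17 to Hnrnpll (0.891), Lamb1 (0.866) and Sumo2 (0.847).

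Of the other ADAM genes, 8 were tested, and 1 rose at folic acid day 3, Adam22 (1.88, SE 0.40, adjusted p = 0.00689), with 0 called in the other comparisons with uninjured kidney. A count of 1 in 8 is near the 10.6% of all genes tested that rose at day 3. Of the other ADAMTS genes 6 of 14 were tested, and 2, 3, 0 and 2 rose at folic acid days 3, 7 and 14 and in UUO. Among all genes tested 10.6%, 7.5%, 4.2% and 9.07% rose in that order of groups. Adamts15 rose by 1.64, 0.70 and 1.34 at days 3 and 7 and in UUO (adjusted p = 6.26e-05, 0.0198 and 0.000253), and Adamts9, a further versican-cutting enzyme, by 2.20, 0.95 and 1.35 (adjusted p = 9.41e-05, 0.0239 and 0.00236). Like Adamts4, both were higher in UUO than at folic acid day 14, by 0.87 and 1.23 (adjusted p = 0.018 and 0.0184). Adamts7 rose at day 7 (1.88, adjusted p = 0.0118). Among 6 ADAMTS-like genes, which encode secreted relatives without the protease domain, Adamtsl2 rose by 3.68 at day 3 (SE 0.63, adjusted p = 0.0019) and Adamtsl1 by 2.06 (adjusted p = 0.00273), while Adamtsl3 fell by 0.66 (adjusted p = 0.0416). Adamtsl2 and Adamtsl1 also rose at day 7 (2.18 and 1.32, adjusted p = 0.0424 and 0.0393), and Adamtsl1 rose in UUO (1.55, adjusted p = 0.0137).

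The inhibitors did not move in 1 direction. Of 5 tested, 3 rose and 1 fell at folic acid day 3, 2 rose and 0 fell at day 7, 1 rose and 1 fell at day 14, and 3 rose and 1 fell in UUO. In the same groups 10.6%, 7.5%, 4.2% and 9.07% of all genes tested rose and 6.39%, 4.19%, 1.47% and 7.52% fell. Timp1 rose by 5.06, 5.01, 4.06 and 4.33 in that order (SE 0.38, adjusted p = 5.34e-06, 8.5e-06, 6.95e-05 and 1.9e-05). Timp3, the inhibitor with the widest action on these families, fell at day 3, at day 14 and in UUO (log2 differences of -1.29, -1.01 and -1.67, adjusted p = 0.00655, 0.0493 and 0.00132). Reck, a membrane-anchored inhibitor, rose by 1.51 at day 3 and by 1.94 in UUO (adjusted p = 0.0153 and 0.00383). Among 11 genes of protease maturation and trafficking, Rhbdf1, an inactive rhomboid protein that escorts ADAM17 to the surface, rose in all 4 comparisons by 1.18, 1.46, 1.30 and 1.55 (adjusted p = 0.0106, 0.00473, 0.0155 and 0.00214). Tspan33, a tetraspanin partner of ADAM10, fell at day 3, at day 7 and in UUO (log2 differences of -1.85, -1.78 and -2.30, adjusted p = 0.00363, 0.00673 and 0.000929), and Furin, the convertase that removes their prodomains, rose at day 3 (0.63, adjusted p = 0.0378).

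Among substrates on the cell surface, the membrane chemokines rose in each injured group. Their list counts can be read against the 10.6%, 7.5%, 4.2% and 9.07% of all genes that rose, and the 6.39%, 4.19%, 1.47% and 7.52% that fell, at folic acid days 3, 7 and 14 and in UUO. Of 9 shed ligands 2 rose at folic acid days 3, 7 and 14 and 3 in UUO, and 2 fell at day 3, 1 at day 7 and 0 in the other groups. Cx3cl1, a membrane chemokine shed by both sheddases, rose by 2.40, 3.14, 1.43 and 2.60 (adjusted p = 0.000685, 0.00015, 0.0343 and 0.000386), and Cxcl16, another membrane chemokine, by 2.11, 2.48, 2.44 and 2.51 (adjusted p = 0.00157, 0.000799, 0.00174 and 0.000493). Kitl fell by 0.94 at day 3 (adjusted p = 0.0285) and Hbegf fell by 0.81 at day 7 (adjusted p = 0.0288). Of 14 shed receptors and adhesion proteins, 1 rose and 2 fell at day 3, 1 rose at day 7, 0 were called at day 14 and 2 fell in UUO. Sdc4 fell at day 3 and in UUO (-1.10 and -2.19, adjusted p = 0.0234 and 0.000365), Cdh1, the epithelial cadherin, fell by 2.13 in UUO (adjusted p = 0.0145), and Notch3 rose at day 3 (1.16, adjusted p = 0.0106) and Cd44 at day 7 (2.22, adjusted p = 0.0119). Of 3 EGF receptor genes, Egfr rose at day 7 (1.70, adjusted p = 0.012) and was the only call.

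The matrix substrates of the ADAMTS enzymes included several genes that rose in each injured group. Of 7 proteoglycans and other substrates 4, 4, 3 and 5 rose at folic acid days 3, 7 and 14 and in UUO, and 0 fell. Of all genes tested, 10.6%, 7.5%, 4.2% and 9.07% rose and 6.39%, 4.19%, 1.47% and 7.52% fell in these groups. Vcan, the versican that ADAMTS1, ADAMTS4 and ADAMTS5 cut, rose by 1.28 at day 3, by 1.42 at day 7 and by 2.96 in UUO (adjusted p = 0.0403, 0.0337 and 0.000316). It was 2.32 higher in UUO than at folic acid day 14 (SE 0.39, adjusted p = 0.00984). Fn1 rose by 3.92, 4.18, 3.61 and 4.72, Dcn by 3.74, 3.64, 2.72 and 4.74 and Bgn by 1.72, 1.84, 1.23 and 1.88 (adjusted p from 4.03e-06 to 0.0454). Of 11 procollagens and processing partners 9, 8, 6 and 8 rose and 0 fell, with Col1a1 higher by 5.24, 5.02, 4.36 and 5.41 and Col3a1 by 6.45, 6.23, 5.72 and 6.66 (adjusted p from 3.34e-08 to 9.51e-06), and Col5a1 by 3.99 and Col5a2 by 4.55 at day 3 (adjusted p = 6.26e-06 and 3.88e-05). Col1a1, Col3a1 and Dcn are also among the fibroblast markers above, of which 6, 6, 5 and 8 of 10 rose. Of those 10, Col1a2, Lum and Cdh11 were below the 40th percentile in every uninjured array and entered the tests only through injured arrays. Any call of these genes against uninjured kidney is partly set by that filter, as is that of Col1a2 in the procollagen count for UUO. Beside these counts, 5, 2, 0 and 9 of 11 proximal tubule markers and 9, 6, 0 and 11 of 11 distal nephron markers fell and 4, 9, 8 and 3 of 13 macrophage markers rose in the same order of groups, and their part in the list counts was not tested.

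**Figure D5:**
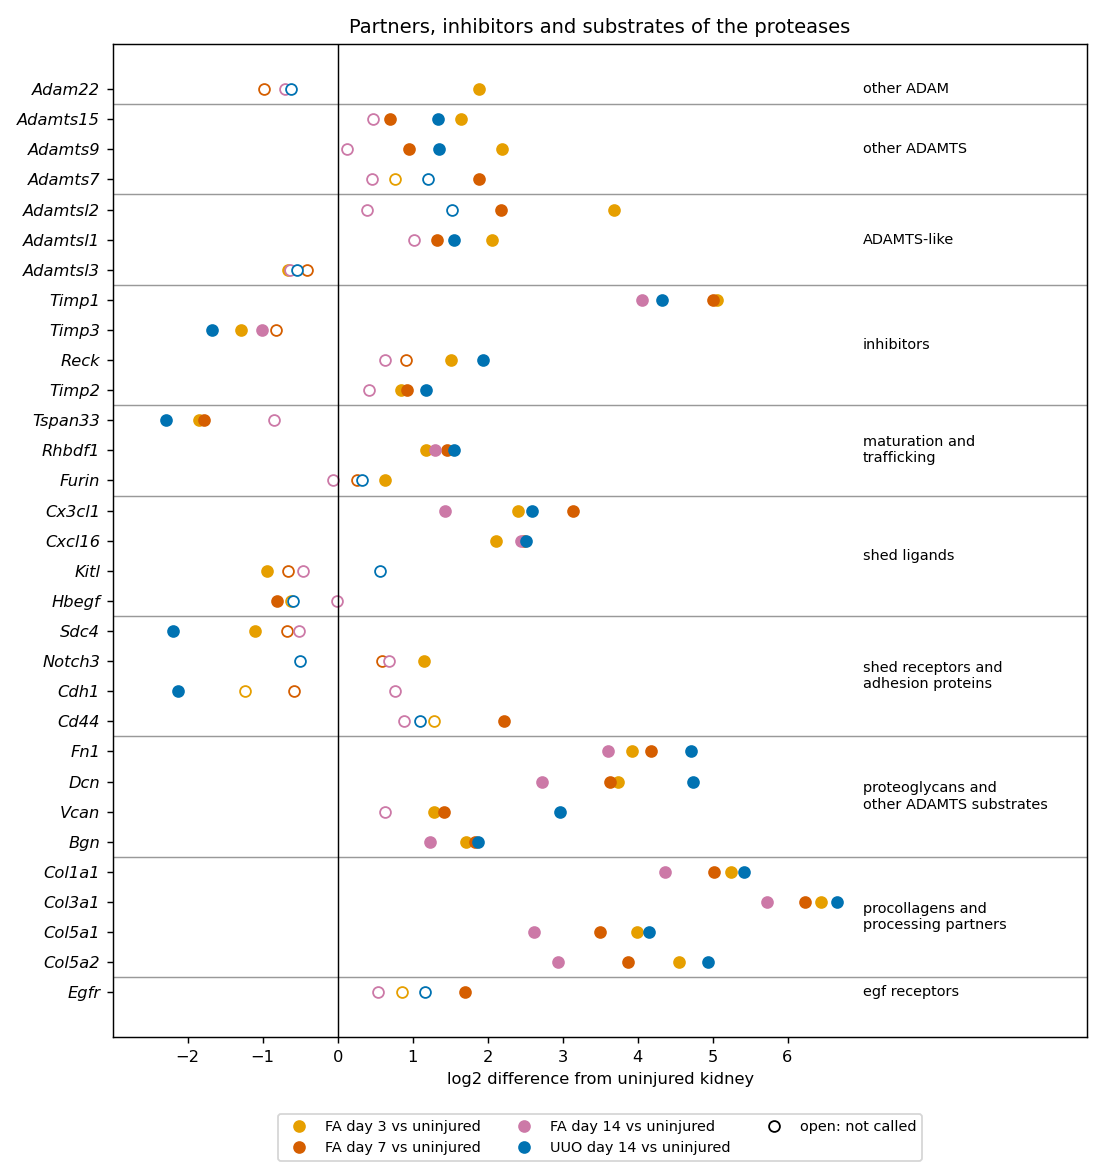
Log2 difference from uninjured kidney of the named inhibitors, partners and substrates, grouped by list and coloured by injury group (3 arrays each); filled points have an adjusted p under 0.05. Matrix substrates and procollagens lie to the right of 0, Timp1 near 4 to 5, and Timp3, Tspan33 and Sdc4 to the left.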

How the data were processed

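The authors deposited log2 intensities for 45141 probe sets on each of 15 arrays, summarised with RMA per the submitters' processing notes. Those notes list affy and limma too, with no version and no role given. The arrays measured RNA amplified and labelled with biotin, per the labels' protocols. They ran from 2.43 to 13.1 and were used without further normalization. No detection call was used, and the number of arrays limits the precision.

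Probe sets were named through the platform annotation (28898 name 1 gene, 551 several, 15692 are not named in it). The symbols were checked by Entrez identifier, which matched 28689 and found 0 that differed. The brightest probe set stood for a gene. The 13523 genes above the 40th percentile of their array in at least 3 arrays were tested. limma 3.58.1 in R 4.3.3 fitted 1 mean per group to all 15 arrays (10 residual degrees of freedom). Tests were 2-sided, with Benjamini-Hochberg adjustment over all genes tested within each of 10 comparisons. The fit was tested on simulated data. Running numbers in the labels are not shared between groups, so no samples were paired. Plots used matplotlib 3.10.9, and sequences are from RefSeq (GRCm38.p6). The authors' genome build is not given in the sources used here, so the only coordinates printed are those of the RefSeq promoter windows, in that table's build.

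The named genes are the 9 proteases, up to 4 tested genes of each partner list with the smallest F test p among those called in at least 1 comparison with uninjured kidney, and the 3 genes most correlated with each protease. Pdgfra, Acta2 and Timp1 were tested beside the proteases for comparison, and no value was scaled to them. Results for Acta2 are not given here. The proteases, lists and markers were chosen with earlier results of these data known. Alternatives were another normalization, filter, threshold, variance model, probe set rule, covariate or set of arrays.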

Additional observations from a re-analysis of the deposited data

Results flagged for a closer look

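Some differences between injury groups passed the test of the difference itself, with values as above. Adamts1 was lower at folic acid day 14 than at day 3 (log2 difference -1.84) and lower in UUO than at folic acid day 3 (-3.04). Adamts4 was higher in UUO than at folic acid day 14 (2.32) and lower at folic acid day 14 than at day 3 (-1.87).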

How the results depend on the processing

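No paired analysis was possible because the groups share no replicate numbers in the labels. Quantities here are counts of the 8 measured genes called, against 5, 5, 0 and 7 at folic acid days 3, 7 and 14 and in UUO, 1 for UUO against folic acid day 14 and 6 in the F test. At a threshold of 0.01 the counts were 2 at day 3, 2 at day 7 and 2 in the F test, by construction of the threshold. With the proximal tubule covariate they were 1 at day 3, 1 at day 7, 2 in UUO, 0 for UUO against day 14 and 2 in the F test. With the macrophage covariate they were 2 at day 3, 0 at day 7, 2 in UUO and 0 for UUO against day 14. Day 14 against uninjured kidney gave 2 with quantile normalization or array weights and 1 with median centring, the 60th percentile filter, the mean of probe sets or only the 2 groups compared. Without the injured arrays bright in tubule markers, chosen after seeing the data, it gave 1, and UUO against day 14 gave 0. The cause of these changes was not tested.

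Leaving out each array in turn gave 3 to 6 at day 3, 2 to 7 at day 7, 0 to 1 at day 14, 5 to 8 in UUO, 1 to 4 for UUO against day 14 and 2 to 7 in the F test. It moved Adam12 at day 14 between -0.12 and 1.12 and Adamts1 at day 3 between -0.0083 and 0.82, neither of them called. Of 1040 values of single genes under an alternative, 923 kept their direction and their side of the threshold, 62 lost and 41 gained a call and 14 changed sign. None of the sign changes touched a called difference except Adam19 at day 7 with the macrophage covariate (-0.71). That covariate also gave -1.25 for Adam12 at day 7, and at day 14 -2.56 for Adam12, -1.54 for Adam19, -0.0426 for Adamts4, 0.0814 for Adamts5 and -0.0747 for Adamts12. The tubule covariate gave -0.16 for Adamts1 at day 3 and -0.0591 for Adam17 in UUO against day 14, where leaving out the arrays bright in tubule markers gave -0.19. The mean of probe sets gave -0.0887 for Adam17 and -0.0918 for Adam10 at day 14. The fits with trend and robust settings and with no filter changed no call of these genes, and signal near background limits Adamts4 in uninjured kidney.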
